A study of Mus musculus with 6 samples.

Results

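Genes of the extracellular matrix, of the proteases that cut it and of the receptors that bind it were examined in whole mouse liver after hepatic ischemia-reperfusion. Members were taken by gene symbol: protein-coding genes named as collagens, laminins, fibulins, fibrillins, emilins, latent TGF-beta binding proteins, lysyl oxidases, thrombospondins, SPARC proteins, spondins, CCN proteins, matrix metalloproteinases (MMPs), ADAM and ADAMTS proteases, TIMPs, integrins, syndecans and glypicans, with *Tnc*, *Postn*, *Eln* and *Fn1*. Of the 3201 genes in the deposited table, 2441 were protein-coding and 58 were members. The GENCODE annotation of GRCm38 holds 216 genes that match the rule, and the others were not analysed here.

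The libraries came from 3 livers labelled IR and 3 livers labelled 18KO, all from mice put through 1 h of liver ischemia and 6 h of reperfusion. The 18KO livers came from *Fgf18* △HSC mice, in which Cre driven by the GFAP promoter recombines floxed *Fgf18* alleles in hepatic stellate cells. The label of the IR livers gives no genotype, and these controls are described as *Fgf18* f/f mice, which carry the floxed alleles without Cre. Both groups had the same surgery, and no liver without ischemia was included. The study used male mice on a C57BL/6 background, and their age is not given in the sources used here. *Fgf18* itself was not analysed here, so the labels could not be checked against the deleted gene.

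The extracellular matrix of the liver is thin. A fine network of type IV collagen, laminin and nidogen lies under the sinusoidal endothelium, and fibrillar collagen is kept mainly to the portal tracts and the capsule. Hepatic stellate cells make much of it and lay down more after injury, together with crosslinking enzymes. MMPs and ADAM family proteases cut matrix and cell surface proteins, TIMPs inhibit them, matricellular proteins such as CTGF and tenascin-C signal to cells without building fibres, and integrins and syndecans are the receptors.

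Levels are given in TPM, transcripts in relation to all transcripts of a library, which are already divided by gene length. Reads recovered from the TPM and exon lengths summed to between 1574331 and 4852001 on the listed genes of a liver, and the listed genes took 7.14 to 7.93% of all TPM in the IR livers and 3.89 to 3.99% in the 18KO livers. The authors' table lists only genes that already differed between these same livers, by an absolute log2 fold change of at least 1 and an unadjusted p under 0.05. A call on a member is therefore a description of its size and spread and not independent evidence that the group of genes responds, and the share of members called is read beside the share of all listed genes called. Nothing in the labels says more about the replicates than that they are separate samples, so p-values measure the spread between these livers. In whole liver, fewer cells of a type and less RNA per cell cannot be told apart.

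Matrix, protease and receptor genes were mostly higher in the 18KO livers. On the log2 scale used for the test, the largest differences were in matrilysin (*Mmp7*), the stromal signalling protein *Ctgf*, the collagen crosslinker *Loxl4* and tenascin-C (*Tnc*), whose mean TPM was 18.1, 11.4, 8.99 and 13.8 times as high as in the IR livers. Only 4 of the 58 members were lower, namely *Sdc4*, *Mmp15*, *Adam11* and *Col27a1*, and these include the most abundant member, the syndecan *Sdc4*.

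A gene was called where the adjusted p from limma on log2(TPM + 0.1) was under 0.05 and the absolute log2 fold change on that scale was above 1. By this rule 40 of the 58 members were called (69%), beside 71.7% of all listed genes. Of these, 37 were called higher and 3 lower in the 18KO livers, where 41.6% of all listed genes were called higher and 30% lower. The 6 livers fell into groups that did not overlap in 54 members, beside 96.3% of all listed genes. The median log2 fold change was 1.09 over the members and 0.88 over all listed genes. The share of members called was thus near that of the table. In direction, 54 of the 58 members had a higher mean log2 value in the 18KO livers, beside 65.1% of all listed genes.

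Direction went with level in the whole table. Of the members, 39 had a mean under 1 TPM over the 6 livers, and all 39 were higher in the 18KO livers, where 86% of the 1777 listed genes under 1 TPM were higher. Of the 19 members at 1 TPM or more, 15 were higher (78.9%), beside 38.9% of the 1424 listed genes at that level. Of the 18 members not called, 16 had an adjusted p under 0.05 by limma and missed the call on fold change alone, and most of these were genes far below 1 TPM, where the added 0.1 shrinks a ratio. With 0.01 added, 52 members were called higher (62.3% of all listed genes), with 1 added, 8 (8.31%), and by limma-voom on recovered reads 47 of 52 (64.4%).

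**Figure D1:**
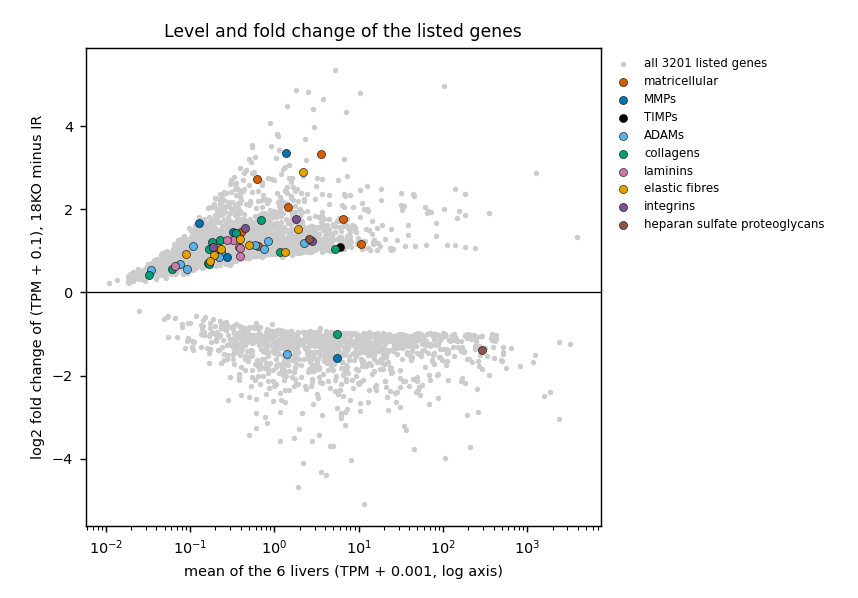
Mean level of each listed gene over the 6 livers (TPM + 0.001, log axis) against its log2 fold change of (TPM + 0.1), 18KO minus IR. Grey points are all 3201 listed genes and coloured points are the 58 members by role. The members lie mostly on the upper arm, 54 above 0, and the 4 below 0 all have a mean above 1 TPM.

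Scaling decided how many members were called. The livers were rescaled so that the listed genes had a median ratio of 1 to their average liver. This scale rests on the listed genes alone, which were selected as differing. Of these, 65.1% had a higher mean log2 value in the 18KO livers, so the scale can take out part of that difference. The log2 fold change of all listed genes moved by a median of -0.74, and the share of called genes that were higher went from 58.1% to 24.1%. Under that scaling 7 members were called higher, where 11% of all listed genes were (*Ctgf*, *Tnc*, *Spon2*, *Loxl4*, *Mmp7*, *Mmp10* and *Col20a1*) and 4 lower (*Sdc4*, *Mmp15*, *Adam11* and *Col27a1*). No member changed direction, and neither did any of the 3201 listed genes, which were all listed for an absolute log2 fold change of at least 1.

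**Figure D2:**
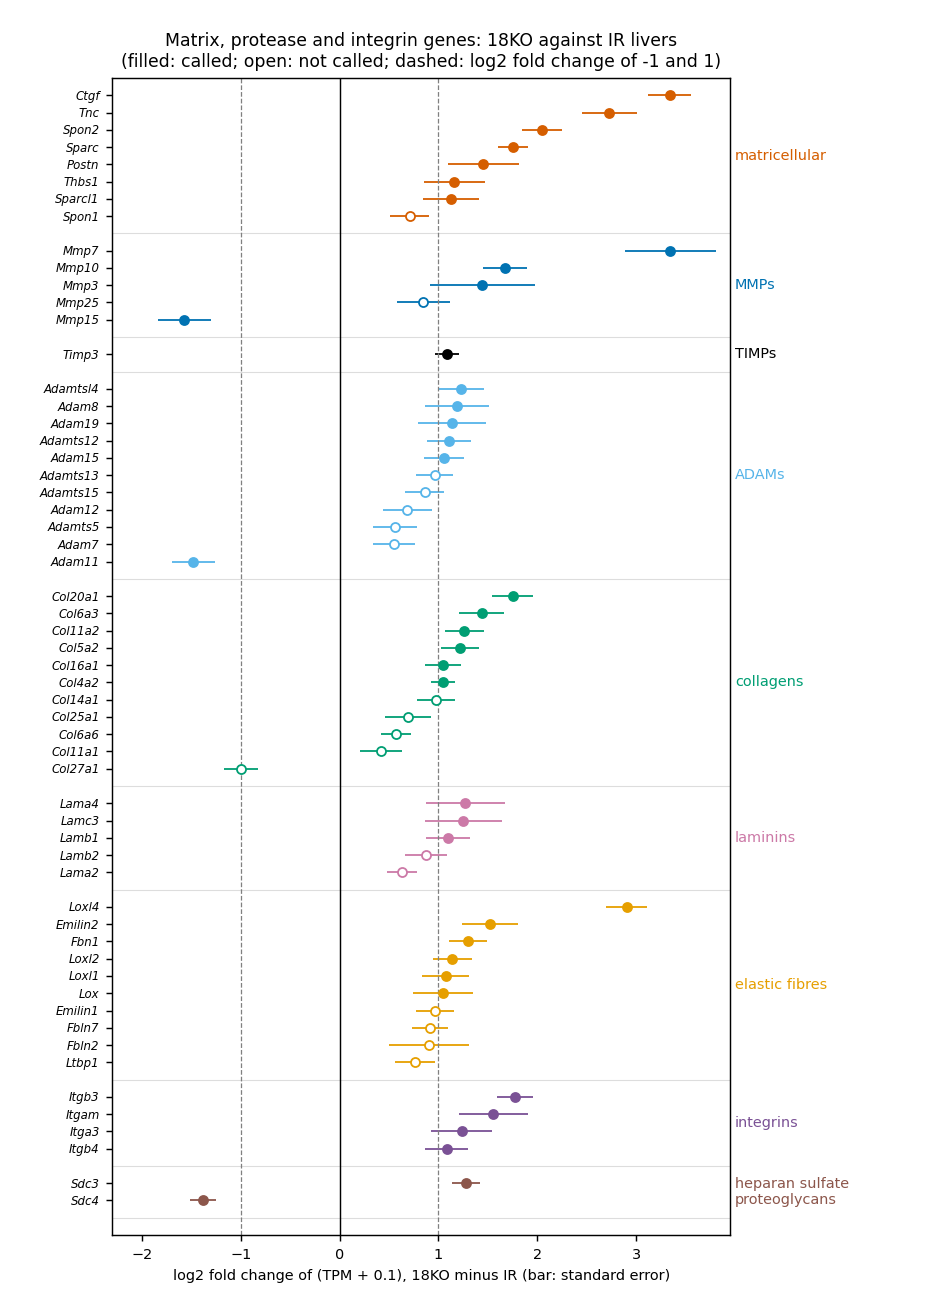
Log2 fold change of (TPM + 0.1), 18KO minus IR, for 57 of the 58 members grouped by role, with bars for the standard error. Filled points were called and open points were not, and dashed lines mark -1 and 1. *Mmp7* and *Ctgf* reach 3.35 and 3.34, and *Mmp15*, *Adam11*, *Sdc4* and *Col27a1* lie to the left of 0.

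Matricellular genes had the highest median log2 fold change of the classes. All 8 listed were higher in the 18KO livers with no overlap between the groups, 7 were called, and that median was 1.61. *Ctgf* (chr10:24595442-24598683, GRCm38, plus strand) encodes a CCN family protein that binds growth factors and integrins and is a standard read-out of TGF-beta and YAP activity. Its level was 0.379, 0.612 and 0.737 TPM in the IR livers and 6.71, 6.06 and 6.94 TPM in the 18KO livers. Every 18KO liver was above every IR liver by a wide margin, and the 18KO livers lay close together. The means were 0.576 ± 0.182 and 6.57 ± 0.455 TPM (SD, n = 3 each), a log2 fold change of 3.34 ± 0.22 (SE; limma adjusted p = 1.76e-05).

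*Tnc* encodes tenascin-C, a large glycoprotein that adult tissue makes mainly in wounds. It stood at 0.0529, 0.0982 and 0.1 TPM in the IR livers and at 1.04, 0.8 and 1.63 TPM in the 18KO livers. It was close to undetected in the first group, on 11 to 17 reads a liver, and well above that in every liver of the second, on 95 to 250 reads. The log2 fold change was 2.73 ± 0.28 (limma adjusted p = 8.27e-05). *Spon2*, a spondin of the matrix that also takes part in innate immunity, was at 0.646, 0.457 and 0.433 TPM against 2.72, 2.09 and 2.42 TPM (log2 fold change 2.04 ± 0.20, limma adjusted p = 7.12e-05).

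*Sparc* encodes a collagen-binding glycoprotein of matrix-producing cells. Its level was 2.75, 2.67 and 3.36 TPM in the IR livers and 8.78, 11.4 and 10.3 TPM in the 18KO livers, again with no overlap. It rose by a log2 fold change of 1.76 ± 0.15 (limma adjusted p = 4.43e-05), 3.46-fold in mean TPM. Its relative *Sparcl1* rose less, from 0.373 ± 0.149 to 0.902 ± 0.144 TPM (SD, n = 3 each).

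*Thbs1* was the most abundant matricellular gene, and its product, thrombospondin 1, binds cells and matrix and activates latent TGF-beta. It was at 5.95, 6.33 and 6.23 TPM in the IR livers and at 14.4, 8.33 and 22.3 TPM in the 18KO livers. The IR livers agreed closely while the 18KO livers differed from each other by more than the gap between the groups at its narrowest. The log2 fold change was 1.16 ± 0.31 (limma adjusted p = 0.00686), and it was 0.82 without 18KO liver 3, below the limit for a call. *Postn* (periostin, which helps to assemble collagen fibrils) was at 0.146, 0.108 and 0.211 TPM against 0.327, 1.02 and 0.587 TPM, with 18KO liver 2 the highest (log2 fold change 1.45 ± 0.36, limma adjusted p = 0.00486). *Spon1* (F-spondin) was the matricellular gene that was not called, at 0.102 ± 0.0353 and 0.227 ± 0.0115 TPM (SD, n = 3 each) and a log2 fold change of 0.71.

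**Figure D3:**
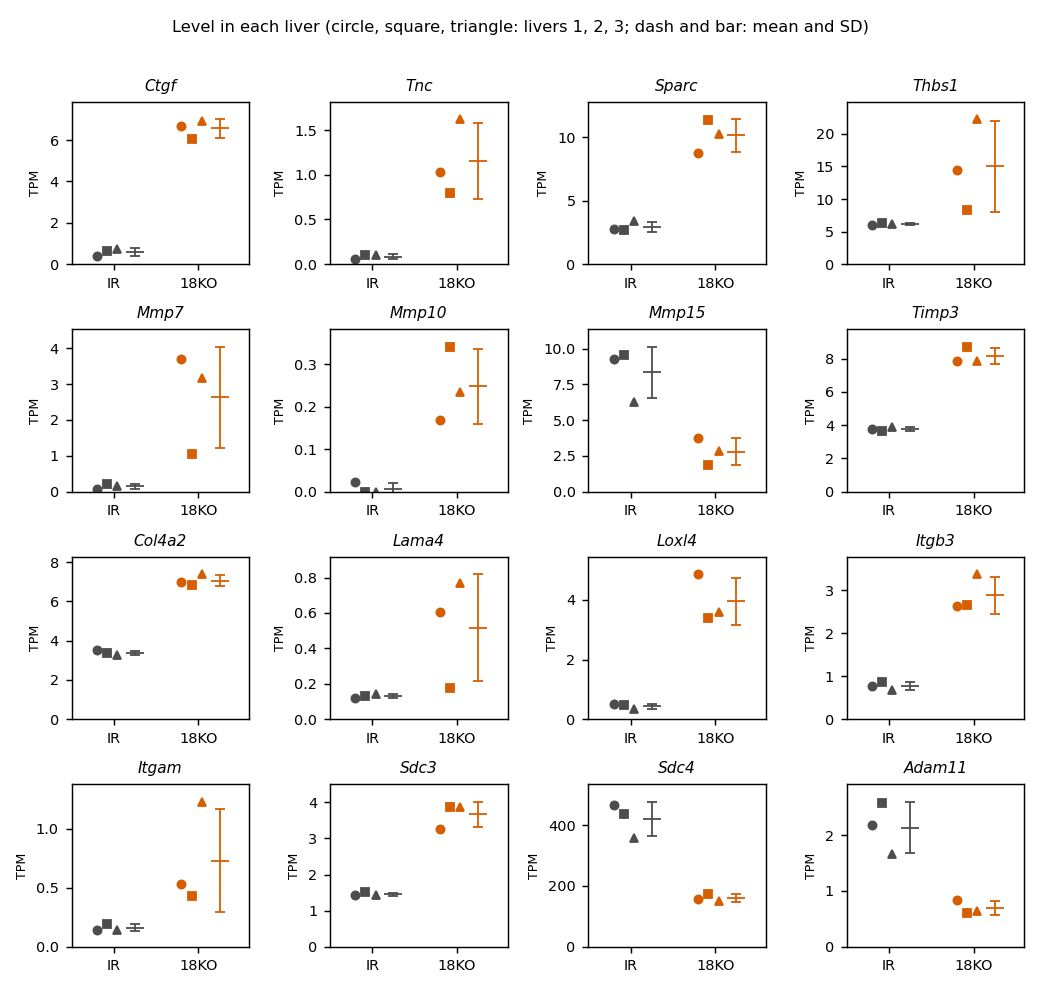
TPM in each liver for 16 members, with circles, squares and triangles for livers 1, 2 and 3 of each group and a dash and bar for the mean and SD. *Ctgf*, *Sparc*, *Timp3*, *Col4a2* and *Sdc3* show tight groups far apart, *Thbs1*, *Lama4* and *Itgam* show a wide 18KO group, and *Mmp15*, *Sdc4* and *Adam11* are lower in every 18KO liver.

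MMPs went in both directions. Of 21 annotated MMP genes under the rule 5 were listed, and 3 were called higher and 1 lower in the 18KO livers. The 3 that rose were secreted enzymes from 1 gene cluster on mouse chromosome 9: *Mmp7* (chr9:7692090-7699585, GRCm38, plus strand), *Mmp3* (chr9:7445822-7455975) and *Mmp10* (chr9:7502352-7510240). The MMP that fell, *Mmp15* on chromosome 8, encodes a membrane-type enzyme held at the cell surface.

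Promoter windows were read from RefSeq (GRCm38.p6), 250 bases before to 50 after each start, which matched 38 of the 58 members in 46 windows. They were searched on both strands for 4 motifs. The AP-1 motif TGANTCA was in 5 of the 46 windows (10.9%) and in 7.81% of all 32851 promoter windows. TEAD GGAATG was in 10.9% and 14.7%, E-box CACGTG in 4.35% and 7.15%, and the CArG box in 2.17% and 1.63%. Each of the 3 chromosome 9 MMP genes had a window with TGAGTCA within 63 bases before its RefSeq start, and *Adam19* had one with it further upstream. *Mmp7* and *Adam19* each had another window, at another start, without the AP-1 motif. The windows with TGAGTCA are shown to set the motif side by side, in capitals, and were singled out after the values were known. A match is a description and not a binding site.

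Mmp3, chr9:7445766-7445792, plus strand: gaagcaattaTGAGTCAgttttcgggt
Mmp10, chr9:7502269-7502295, plus strand: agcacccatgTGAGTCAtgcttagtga
Mmp7, chr9:7692017-7692043, plus strand: agtgtgcaaaTGAGTCAcctatttcca
Adam19, chr11:46055843-46055869, plus strand: gtccttcaccTGAGTCAgcgatgctcc

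The other AP-1 match lay just after the start of *Itga3*. All 5 genes were called higher, as were 37 of the 58 members, and a link between the motif and direction was not tested. After the livers were rescaled, only *Mmp7* and *Mmp10* of these genes were called. The 250 bases before the start are given for the called member with the largest change in each direction among genes that averaged 1 TPM or more in a group, with the AP-1 motif in capitals. The *Mmp7* stretch held 38% G and C, and the *Mmp15* stretch held 63.6% and none of the motifs.

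Mmp7, chr9:7691840-7692089, plus strand: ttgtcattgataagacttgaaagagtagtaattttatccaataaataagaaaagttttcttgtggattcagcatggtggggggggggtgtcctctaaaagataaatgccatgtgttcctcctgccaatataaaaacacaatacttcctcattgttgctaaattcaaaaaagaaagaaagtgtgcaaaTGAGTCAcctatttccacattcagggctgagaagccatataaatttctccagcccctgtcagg
Mmp15, chr8:95352046-95352295, plus strand: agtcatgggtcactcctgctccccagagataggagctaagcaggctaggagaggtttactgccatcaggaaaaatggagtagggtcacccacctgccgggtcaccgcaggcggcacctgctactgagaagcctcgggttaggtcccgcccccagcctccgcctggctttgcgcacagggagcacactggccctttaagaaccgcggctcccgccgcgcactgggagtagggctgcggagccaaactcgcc

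*Mmp7* encodes matrilysin, a small MMP made mainly by epithelial cells, bile ducts among them. It was at 0.0699, 0.21 and 0.156 TPM in the IR livers and at 3.7, 1.04 and 3.17 TPM in the 18KO livers. The groups did not overlap, although 18KO liver 2 was well below its companions and the IR values rest on 2 to 5 reads a liver. The log2 fold change was 3.35 ± 0.46 (limma adjusted p = 0.000311) and ranged from 3.02 to 3.89 with each liver left out in turn. An antisense gene shares 11.5% of the exon length of *Mmp7*.

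*Mmp10* and *Mmp3* encode the stromelysins, which cut many matrix proteins and activate other MMPs. *Mmp10* had 1, 0 and 0 reads in the IR livers and 6, 9 and 8 in the 18KO livers, or 0.0217, 0 and 0 TPM against 0.168, 0.342 and 0.235 TPM. Scaled to depth this is a ratio of 27.6 with a 95% counting interval of 4.49 to 1139, so the size was not clear. The interval pools the reads of each group. It leaves out the spread between livers and the selection of the listed genes for a difference. *Mmp3* was at 0.0415, 0.0249 and 0.401 TPM against 0.428, 0.727 and 0.309 TPM, and the groups overlapped through IR liver 3. Its log2 fold change was 1.44 ± 0.53 (limma adjusted p = 0.0274), and the call was lost without 18KO liver 1 (1.49), 18KO liver 2 (1.17), IR liver 1 (1.17) or IR liver 2 (1.08), with adjusted p from 0.0592 to 0.0907.

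*Mmp15* was at 9.25, 9.53 and 6.3 TPM in the IR livers and at 3.73, 1.86 and 2.83 TPM in the 18KO livers, on 153 reads or more in every liver. No 18KO liver reached the lowest IR liver, and it fell by 1.57 on the log2 scale (SE 0.27, limma adjusted p = 0.000853). *Mmp25*, a lipid-anchored MMP of leukocytes, was not called, at 0.165 ± 0.0683 and 0.376 ± 0.109 TPM (SD, n = 3 each) and a log2 fold change of 0.85. It was called without 18KO liver 2 or without IR liver 1, at 1.05 each.

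*Timp3* was the listed TIMP of 4 annotated. Its product is the TIMP that stays bound to the matrix and inhibits ADAM proteases as well as MMPs. It was at 3.8, 3.65 and 3.91 TPM in the IR livers and at 7.88, 8.73 and 7.84 TPM in the 18KO livers, with little spread in either group. It rose by a log2 fold change of 1.08 ± 0.12 (limma adjusted p = 0.000103), and after the livers were rescaled the value was 0.22 with no call. *Syn3*, on the opposite strand, shares 21.3% of its exon length.

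ADAM and ADAMTS genes were mostly low. Of 57 annotated, 11 were listed, 10 of them higher in the 18KO livers, and none overlapped between the groups. By the log2(TPM + 0.1) rule 5 were called higher and 1 lower, with a median log2 fold change of 0.96, and with 0.01 added in place of 0.1 all 11 were called. *Adam8*, a sheddase of myeloid cells, was the most abundant, at 1.46, 1.37 and 0.97 TPM against 2.93, 1.86 and 4.78 TPM. Its groups were separate but the 18KO livers spread widely (log2 fold change 1.19 ± 0.32, limma adjusted p = 0.00779, and 0.85 with no call without 18KO liver 3). *Adamtsl4*, which lacks a protease domain and binds fibrillin, was at 0.587, 0.364 and 0.436 TPM against 1.06, 1.08 and 1.5 TPM (log2 fold change 1.22 ± 0.23, limma adjusted p = 0.00146). *Adam19*, a membrane sheddase, was at 0.294, 0.36 and 0.273 TPM against 0.833, 0.442 and 1.31 TPM (log2 fold change 1.13 ± 0.34, limma adjusted p = 0.0121, and 0.80 without 18KO liver 3). *Adam15* and *Adamts12* were called too, at log2 fold changes of 1.05 and 1.11. None of these 5 was called after rescaling, and 2 ADAM genes in all were called without 18KO liver 3. An antisense gene shares 20.6% of the exon length of *Adam15*.

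*Adam11* was the ADAM that fell. It encodes a member without protease activity that is best known from neurons. It was at 2.17, 2.58 and 1.66 TPM in the IR livers and at 0.842, 0.612 and 0.633 TPM in the 18KO livers, with no overlap, and it fell by 1.48 on the log2 scale (SE 0.22, limma adjusted p = 0.000411).

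The other 5 ADAM genes were not called. *Adamts13*, whose product cuts von Willebrand factor and is made in liver by stellate cells, was at 0.114, 0.109 and 0.158 TPM against 0.323, 0.359 and 0.339 TPM. Its groups were narrow and separate, and the log2 fold change of 0.96 ± 0.19 lay just under the limit (limma adjusted p = 0.00174). It was 1.06, and called, without IR liver 3. *Adamts15*, *Adam12*, *Adamts5* and *Adam7* had log2 fold changes of 0.86, 0.69, 0.56 and 0.55. *Adam7* rested on 2 reads in all the IR livers and 15 in all the 18KO livers, a ratio of 9.01 with a 95% counting interval of 2.1 to 81.2.

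Of 45 annotated collagen genes 11 were listed, *Col1a1*, *Col1a2*, *Col3a1* and *Col4a1* not among them, and 6 were called higher and none lower in the 18KO livers. *Col4a2*, a chain of the type IV network of basement membranes, was at 3.5, 3.36 and 3.25 TPM in the IR livers and at 6.99, 6.81 and 7.39 TPM in the 18KO livers. Both groups were tight, and the log2 fold change was 1.05 ± 0.12 (limma adjusted p = 0.000121), or 0.18 and not called after rescaling. *Col20a1*, a fibril-associated collagen, showed the largest change of the class, from 0.276, 0.253 and 0.248 TPM to 0.9, 1.29 and 1.17 TPM (log2 fold change 1.75 ± 0.20, limma adjusted p = 0.000139), and it was the collagen called higher after rescaling. *Col6a3*, a chain of the type VI microfibrils around cells, was at 0.116, 0.135 and 0.172 TPM against 0.572, 0.427 and 0.672 TPM (log2 fold change 1.44 ± 0.22, limma adjusted p = 0.000576). *Col16a1*, another fibril-associated chain, was called at 1.05.

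Fibrillar chains were split. *Col11a2* rose from 0.0921 ± 0.0176 to 0.362 ± 0.0549 TPM and *Col5a2*, a chain that regulates the width of collagen fibrils, from 0.0701 ± 0.0136 to 0.297 ± 0.0512 TPM (SD, n = 3 each), with log2 fold changes of 1.26 and 1.22. *Col27a1*, the most abundant collagen of the table, went the other way, from 7.87, 7.55 and 7.01 TPM to 4.55, 2.95 and 3.73 TPM. Its groups were separate and its log2 fold change of -1.0 ± 0.17 fell just short of the limit (limma adjusted p = 0.000884). It was past the limit without 18KO liver 1 (-1.15), 18KO liver 3 (-1.007) or IR liver 3 (-1.04), and after rescaling (-1.87). *Col11a1* was not called on 2 to 24 reads a liver, and its groups overlapped (log2 fold change 0.42, limma adjusted p = 0.0833).

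The other 3 collagens that were not called were higher in every 18KO liver. *Col14a1*, a fibril-associated chain found on stromal cells, was at 0.746, 0.659 and 0.871 TPM against 1.3, 1.78 and 1.7 TPM, a log2 fold change of 0.98 ± 0.20 (limma adjusted p = 0.00187). It was 1.11 without 18KO liver 1 and 1.07 without IR liver 3, both called. *Col25a1*, a transmembrane collagen, and *Col6a6* had log2 fold changes of 0.69 and 0.57.

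Laminins, the trimers that organise basement membranes, were all below 1 TPM. Of 11 annotated chains 6 were listed and higher, and 4 were called. *Lama4*, the alpha chain of vascular basement membranes, was at 0.118, 0.13 and 0.143 TPM in the IR livers and at 0.603, 0.179 and 0.766 TPM in the 18KO livers. *Lamc3* was at 0.104, 0.125 and 0.0911 TPM against 0.594, 0.15 and 0.581 TPM. In both genes 18KO liver 2 lay just above the IR livers and the other two far above. The log2 fold changes were 1.27 ± 0.40 and 1.25 ± 0.39 (limma adjusted p = 0.0147 and 0.014).

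*Lamb1*, a common beta chain, was steadier, at 0.166, 0.19 and 0.263 TPM against 0.467, 0.528 and 0.668 TPM (log2 fold change 1.10 ± 0.22, limma adjusted p = 0.00209). *Lamb2*, which was the most abundant laminin in the IR livers, and *Lama2* were not called, at log2 fold changes of 0.87 and 0.63. No laminin was called without 18KO liver 3 or after rescaling. In all 1 was called without 18KO liver 1 and 2 without IR liver 1.

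Elastic fibre and crosslinking genes included a single large change. Of 20 annotated 10 were listed, all higher in the 18KO livers, and 6 were called. *Loxl4* encodes a lysyl oxidase, the copper enzymes that crosslink collagen and elastin. It was at 0.505, 0.469 and 0.343 TPM in the IR livers and at 4.86, 3.39 and 3.59 TPM in the 18KO livers, far apart and on 218 or more reads in each 18KO liver. The log2 fold change was 2.90 ± 0.21 (limma adjusted p = 2.22e-05), and 2.13 after rescaling, where it was called alone in its class.

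The other lysyl oxidases changed less. *Loxl2* was at 0.325, 0.266 and 0.247 TPM against 0.678, 0.739 and 0.785 TPM, *Loxl1* at 0.106 ± 0.0545 against 0.327 ± 0.0513 TPM, and *Lox* at 0.116 ± 0.0556 against 0.352 ± 0.154 TPM (SD, n = 3 each). All 3 were called, at log2 fold changes of 1.14, 1.07 and 1.05. *Emilin2*, a microfibril glycoprotein, was at 0.946, 0.907 and 0.852 TPM against 2.8, 1.79 and 4.23 TPM, with a narrow IR group and a wide 18KO group (log2 fold change 1.52 ± 0.28, limma adjusted p = 0.00133). *Fbn1*, the scaffold of microfibrils, was at 0.16, 0.181 and 0.206 TPM against 0.636, 0.529 and 0.617 TPM (log2 fold change 1.30 ± 0.19, limma adjusted p = 0.000469). A gene on the opposite strand shares 20.1% of the exon length of *Fbn1*.

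*Emilin1*, *Fbln7*, *Fbln2* and *Ltbp1*, which stores latent TGF-beta in the matrix, were not called. Their log2 fold changes were 0.97, 0.91, 0.90 and 0.77. *Fbln2* overlapped, at 0.0469, 0.0423 and 0.227 TPM against 0.31, 0.123 and 0.389 TPM (limma adjusted p = 0.057), and was called without IR liver 3 (1.30) or 18KO liver 2 (1.24). *Fbln7* was called at 1.03 without IR liver 3, and *Emilin1* at 1.02 without 18KO liver 1 and at 1.08 without IR liver 2.

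Integrins are the paired receptors that tie cells to the matrix. Of 31 annotated genes 4 were listed, and all 4 were called higher in the 18KO livers, though not after rescaling. *Itgb3*, the beta chain of the vitronectin receptor and of the platelet fibrinogen receptor, was at 0.779, 0.867 and 0.668 TPM against 2.62, 2.65 and 3.37 TPM. No values lay between, and the log2 fold change was 1.77 ± 0.18 (limma adjusted p = 7.58e-05). The platelet alpha chain *Itga2b* was not among the listed genes, and the platelet list held 1 listed gene, *Ppbp*, at 0.785 ± 0.115 against 2.92 ± 0.538 TPM (SD, n = 3 each).

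*Itgam*, the CD11b chain of myeloid cells, was at 0.141, 0.197 and 0.144 TPM against 0.528, 0.43 and 1.23 TPM, with 18KO liver 3 apart (log2 fold change 1.55 ± 0.35, limma adjusted p = 0.00314). Another gene model on the same strand shares 68.7% of its exon length, so its level is uncertain. *Itga3*, a laminin receptor chain and the most abundant integrin listed, was at 1.64, 1.43 and 1.54 TPM against 4.09, 2.2 and 5.75 TPM (log2 fold change 1.23 ± 0.31, limma adjusted p = 0.00539). *Itgb4*, the chain of hemidesmosomes, was low in all livers and was called at 1.08. *Itga3* and *Itgb4* were not called without 18KO liver 3, at 0.93 and 0.97.

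Syndecans, transmembrane proteins that carry heparan sulfate and act beside integrins and growth factor receptors, went in opposite directions. *Sdc4* (chr2:164424247-164443887, minus strand) had by far the highest level of any member, at 466, 437 and 357 TPM in the IR livers and 158, 174 and 150 TPM in the 18KO livers. Every 18KO liver was far below every IR liver. The means were 420 ± 56.5 and 160 ± 12 TPM (SD, n = 3 each), and it fell by 1.38 on the log2 scale (SE 0.13, limma adjusted p = 6.11e-05), on 6756 reads or more a liver. *Sdc3* was far lower, at 1.42, 1.51 and 1.43 TPM, and rose to 3.26, 3.86 and 3.88 TPM (log2 fold change 1.28 ± 0.14, limma adjusted p = 0.000118), though it was not called after rescaling, at 0.43.

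**Figure D4:**
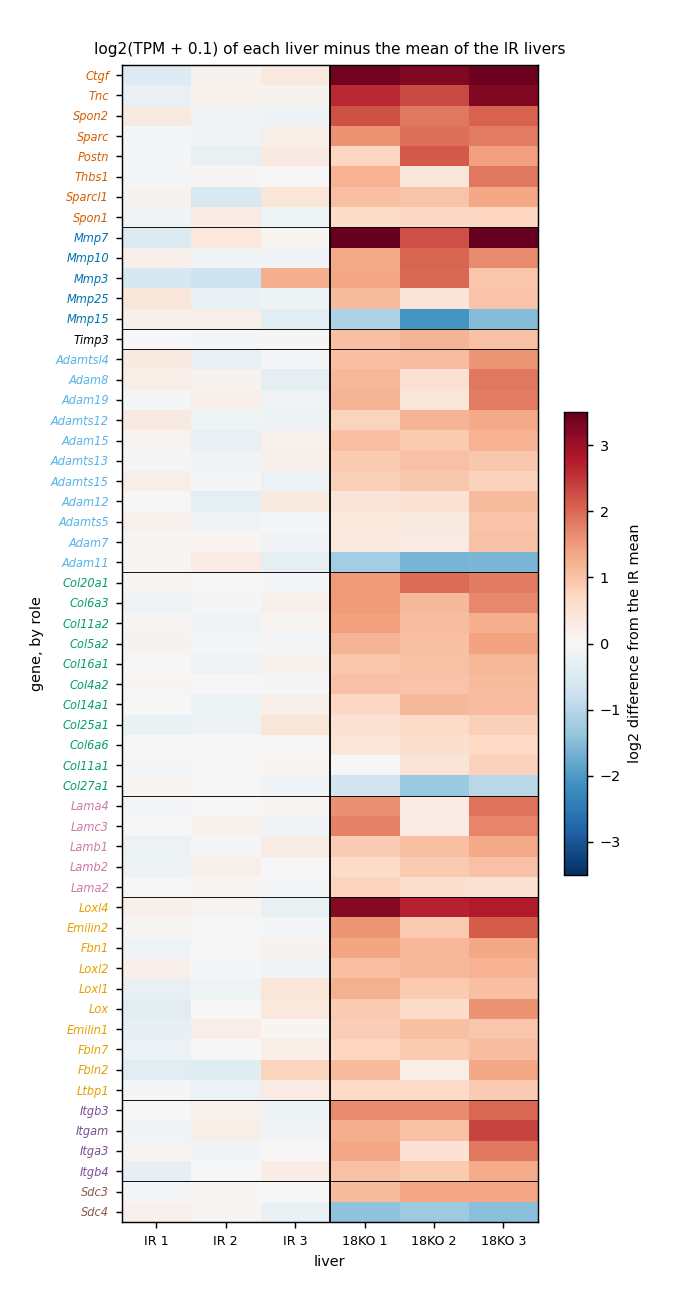
Log2(TPM + 0.1) of each liver minus the mean of the IR livers, for 57 of the 58 members ordered by role with the label colours of the other plots. Columns are the 3 IR and 3 18KO livers, red is higher and blue lower. The 18KO columns are mostly red, 18KO liver 2 is paler in the laminins *Lama4* and *Lamc3* and in *Adam19*, and IR liver 3 stands out in *Mmp3* and *Fbln2*.

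The 18KO livers were less alike than the IR livers in many members. The highest 18KO liver was more than 2 times the lowest in 21 members, and in 16 of these liver 2 was the lowest and in 15 liver 3 the highest. Over all 54 members that were higher, 18KO liver 2 was the lowest of its group in 53.7% and 18KO liver 3 the highest in 64.8%, beside 42.2% and 48.9% of all listed genes that were higher. *Postn*, *Mmp3* and *Mmp10* had their highest value in 18KO liver 2 instead. Of the 40 calls, 24 held with each liver left out in turn. Of all listed genes, 2294 were called and 1685 were called with each liver left out in turn. The losses given below for single livers were not counted over all listed genes. Without 18KO liver 3 there were 24 calls higher in place of 37, and 13 calls were lost, among them, at log2 fold changes of 0.79 to 1.014, *Thbs1*, *Adam8*, *Adam15*, *Adam19*, *Adamts12*, *Col16a1*, *Lox*, *Itga3*, *Itgb4*, *Lama4*, *Lamb1* and *Lamc3*. The calls lost without another liver included *Mmp3*, *Loxl1*, *Lamc3* and *Lama4* (18KO liver 1, 0.99 to 1.49), *Mmp3* (18KO liver 2, 1.17), *Mmp3*, *Lox*, *Loxl1*, *Itgb4* and *Lamb1* (IR liver 1, 0.86 to 1.17) and *Mmp3*, *Adam15*, *Col16a1*, *Loxl1* and *Sparcl1* (IR liver 2, 0.86 to 1.08).

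Other genes of the matrix, outside the symbol rule, were taken from 6 lists of 183 genes, of which 46 were listed in the table. Of these 30 were called higher and 9 lower in the 18KO livers, and 7 were not called. Of all listed genes 41.6% were called higher and 30% lower. As for the members, the table holds only genes that already differed between these livers. Of 43 basement membrane and other matrix glycoproteins 10 were listed, all 10 were higher, and 6 were called. *Nid1*, the nidogen that links laminin to type IV collagen, was at 2.25, 2.24 and 1.87 TPM against 11.2, 10.6 and 11.9 TPM (log2 fold change 2.35 ± 0.13, limma adjusted p = 1.28e-05). The osteopontin gene *Spp1*, expressed by bile duct cells and activated stellate cells, was at 12.3, 11.5 and 16.1 TPM against 50.5, 43.4 and 65 TPM, and *Fgl2* rose by 1.6 on the log2 scale. In both *Nid1* and *Spp1* the gap between the groups was larger than the spread within either.

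The proteoglycans gave 4 calls higher and 1 lower of 5. *Vcan*, a large hyaluronan-binding proteoglycan, and *Bgn*, a small collagen-binding one, rose by 1.83 and 1.17 on the log2 scale, and *Omd* fell by 1.73. Of 5 collagen processing genes, the collagen chaperones *Serpinh1* and *Fkbp10* rose by 1.96 and 1.69, the transglutaminase *Tgm1* fell by 1.02, and 2 were not called. *Tgm1* lost its call without 18KO liver 3 (-0.97), IR liver 1 (-0.96) or IR liver 2 (-0.92).

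The plasminogen and protease list gave 6 calls higher and 3 lower of 9. *Serpine2*, a secreted inhibitor of serine proteases, was at 0.297, 0.303 and 0.442 TPM in the IR livers and at 1.31, 2.29 and 1.3 TPM in the 18KO livers, and it rose by 1.92 on the log2 scale (SE 0.27, limma adjusted p = 0.000328). *A2m*, a protease inhibitor of plasma, was at 0.729, 1.05 and 0.49 TPM against 0.0343, 0.0373 and 0.0792 TPM, with no overlap, and fell by 2.47 (SE 0.28, limma adjusted p = 0.000126).

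The adhesion list gave 4 calls higher and 3 lower of 7. *Icam1*, the endothelial ligand of *Itgam*-containing integrins, was at 37.7, 38.5 and 32.8 TPM against 12.3, 7.55 and 11.9 TPM (log2 fold change -1.80 ± 0.19, limma adjusted p = 9.39e-05), *Bcar1*, an adaptor of focal adhesions, fell by 1.66, and *Emp1* rose by 2.39. TGF-beta genes gave 8 calls higher and 1 lower of 10. *Fstl1* and the endothelial receptor *Acvrl1* rose by 1.65 and 1.5, and the activin antagonist *Fst* fell from 22.9 ± 1.32 to 7.56 ± 1.14 TPM (SD, n = 3 each). *Bgn*, *Fgl2*, *Acvrl1* and *Fstl1* were not called after rescaling.

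Most listed markers of stellate cells and myofibroblasts were higher in the 18KO livers, as most members were. Of 17 markers of activated stellate cells or myofibroblasts 11 were listed and all 11 were called higher, beside 41.6% of all listed genes. Their summed level was 18.8 to 23.2 TPM in the IR livers and 68.1 to 87.2 TPM in the 18KO livers. *Spp1* made up most of that sum, and 5 of the 11 (*Lox*, *Loxl1*, *Loxl2*, *Postn* and *Tnc*) are members here. Of the others, *Acta2*, the smooth muscle actin of myofibroblasts, was at 0.576 ± 0.159 against 2.67 ± 1.55 TPM and *Vim* at 1.78 ± 0.261 against 5.86 ± 1.91 TPM (SD, n = 3 each). After rescaling, only *Acta2*, *Tnc* and *Spp1* of the 11 were called. Of 15 quiescent stellate cell markers 11 were listed, 8 called higher and 1 lower, with sums of 45.1 to 45.7 TPM against 34.9 to 44.2 TPM. The marker that fell, *Tmem56*, made up most of those sums (36.7 ± 1.51 against 13.9 ± 1.75 TPM), and *Pdgfrb* rose by 1.89 on the log2 scale.

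Other cell types moved as well, and their counts stand beside 41.6% of all listed genes called higher and 30% called lower. Sinusoidal endothelial markers were 3 of 12 listed, all called higher (13.6 to 15.6 against 32.1 to 43.0 TPM), and bile duct markers 5 of 10, with 2 called higher and 1 lower (28.1 to 30.5 against 50.2 to 76.8 TPM, mostly *Spp1*). Kupffer cell markers were 3 of 10, with 2 called higher (6.38 to 8.02 against 13.5 to 21.2 TPM). No sinusoidal endothelial or Kupffer cell marker was called after rescaling. Neutrophil markers were 7 of 15, with 3 called higher (*Csf3r*, *Cxcr2* and *Il1r2*) and 4 lower (*Lcn2*, *Ngp*, *Camp* and *Ltf*), and the sum of 423 to 520 against 135 to 180 TPM was mostly *Lcn2*, which hepatocytes also make. Mesothelial markers were 2 of 8, both lower (0.310 to 2.16 against 0.0365 to 0.138 TPM), portal fibroblast markers 3 of 10, with 2 lower (1.29 to 2.35 against 0.554 to 0.854 TPM), and *Des* was the listed gene of 10 muscle markers. No lymphocyte marker of 12 was listed. Of 10 hepatocyte markers *Cyp2e1* and *Pck1* were listed and both fell, with sums of 2018 to 2413 TPM in the IR livers and 593 to 826 TPM in the 18KO livers. The part of these cell types in the values of the members was not tested.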

How the data were processed

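Ischemia and reperfusion times, genotype, strain and sex come from the study's methods and title. Total RNA of 6 livers was made into stranded mRNA libraries. According to the submitters' processing notes and the study's methods, the authors trimmed reads with cutadapt 2.5, aligned them to GRCm38 (mm10) with HISAT2 2.1.0, counted them with featureCounts 1.6.3 (strand setting not given in the sources used here) and compared the groups with DESeq2. They deposited 1 table with a value per gene and liver whose unit it does not name. The deposited values were taken as TPM, since values multiplied by exon length and divided by the product for 1 read gave whole reads (within 0.02) for 92.2 to 92.6% of values below 5000 reads, and for 52 of the 58 members in every liver (approximate for *Adamts5*, *Mmp25*, *Col11a2*, *Emilin2*, *Ltbp1* and *Lox*). Its columns of fold change, p-value, adjusted p-value and direction were not used.

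Values were compared with limma 3.58.1 in R 4.3.3 (trend, two-sided) on log2(TPM + 0.1) over all 3201 genes, with Benjamini-Hochberg adjustment, no block and no filter, and tables and plots were made in Python 3.11.15. On simulated data for this comparison (2933 genes) the fit recovered 76 of 100 genes changed 3-fold and 88 of 100 changed 4-fold, with 3 false calls. Replicate numbers did not pair the livers (correlations of deviations 0.057, 0.006 and 0.031). Exact counting intervals cover counting error only, and the depth of whole libraries is unknown. Genes named in each class were the 3 largest called changes per direction with separate groups, the most abundant member, every member not called, a short list of genes of interest, and the 3 largest called per pathway list. Other members are named as calls, and 2 genes that the rule picks are counted but not reported here. Members, lists and rule were chosen with earlier results of these data known. Alternatives were 2 pseudocounts, a filter at 1 TPM, rescaled livers, no trend, protein-coding genes alone, a replicate block, each liver left out, and limma-voom on recovered reads.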

Additional observations from a re-analysis of the deposited data

How the results depend on the processing

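No member changed direction under any alternative. With livers rescaled no listed gene did either, so a kept direction is not particular to the members. Every gene was listed for an absolute log2 fold change of at least 1, and rescaling moved the values by a median of -0.74. A kept direction was thus largely fixed by the listing. The counts of members called were 40 (37 higher) as reported, 11 (7 higher) with livers rescaled, 10 (8) at a pseudocount of 1, 16 (13) of the 19 members with a mean of at least 1 TPM, 56 (52) at a pseudocount of 0.01 and 51 (47) of 52 by limma-voom on recovered reads, of which 37 were among the 40. The replicate block, no trend and protein-coding genes alone each gave 40, and the block changed no call. By class, the calls with livers rescaled were 1 fibrillar collagen (*Col27a1*, lower and not called as reported, while both reported calls were lost), 1 other collagen, 0 laminins, 1 elastic fibre gene, 3 matricellular, 1 ADAM, 0 TIMPs, 0 integrins, 1 syndecan and 17 of the other pathway genes (39 as reported). A pseudocount of 1 left 0, 0, 0, 2, 4, 0, 0, 1, 1 and 15 in the same order and 2 MMPs. The filter at 1 TPM left 0 fibrillar collagens, 1 other collagen, 2 elastic fibre genes, 4 matricellular, 2 MMPs, 2 ADAMs, 2 integrins and 23 pathway genes, with fewer genes tested, and no laminin passed it. A pseudocount of 0.01 called 7 other collagens and 11 ADAMs, and voom 7 and 10. With each liver left out in turn, 28 to 45 members were called (24 to 41 higher, 3 or 4 lower): 2 to 3 fibrillar and 3 to 5 other collagens, 0 to 4 laminins, 4 to 8 elastic fibre genes, 6 to 7 matricellular, 3 to 4 MMPs, 2 to 7 ADAMs, 2 to 4 integrins and 34 to 38 pathway genes. Depth limits the low members most: 6 had under 10 reads in every IR liver, and 10 had at least 100 reads in every liver.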
